A study of Mus musculus with 5 samples.

Results

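Kinesin motor genes were taken as the rows of the RefSeq gene table whose name is Kif followed by a number and an optional letter, which gave 36 of 18307 genes. Of these, 33 had enough reads to be tested, and Kif12, Kif9 and Kif19a did not. By their textbook roles, 11 were placed with mitosis, 12 with transport of cargo along microtubules and 13 with cilia, microtubule growth or other roles; the tested numbers were 11, 12 and 10. RNA came from heart ventricles of mouse embryos of the outbred CD-1 strain at E10.5, whose dams had received 20 mg/kg caffeine, which blocks adenosine receptors, in 3 libraries, or 0.9% NaCl vehicle in 2 libraries, by daily injection from E6.5 to E9.5. Each library was a pool of ventricles from embryos of the same dams, so p-values measure the spread between such pools. Libraries held 21713381 to 25048134 estimated counts. Levels are given in counts per 1000000 library counts (CPM) after scaling between libraries, and a difference is a log2 fold change, caffeine minus vehicle, with its standard error (SE). Cardiomyocyte markers were present in every library, though the list does not tell ventricle from other heart muscle. The 9 genes, with none at 0 in any library, summed to 20486 to 21885 CPM in caffeine and 24099 to 26190.0 CPM in vehicle. These sums, of which Myh7 alone made 6957 to 9289 CPM, were lower in every caffeine library. Gene by gene, 8 of 9 had a negative log2 fold change and Nkx2-5 a positive one (0.13). Libraries did not overlap for 4 of the 9, all with caffeine lower, against 9.27% of all genes tested. None of the 9 genes passed the test, and the part of cardiomyocyte content in the results below was not tested.

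Kinesins are motor proteins that use ATP to walk along microtubules or to take their ends apart. Mitotic kinesins build the spindle, align chromosomes and organise the cleavage of the dividing cell, and their transcripts are known to be made mainly in late cell cycle stages. Transport kinesins carry vesicles, organelles and ciliary cargo in dividing and resting cells alike. At E10.5 the ventricular wall grows largely by division of cardiomyocytes, so both kinds are at work in it. In pooled tissue, fewer cells of a type and less RNA per cell cannot be told apart.

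None of the 33 tested kinesin genes passed an edgeR adjusted p of 0.05 (FDR 0.05), nor with DESeq2 or limma-voom, against 1 of 13829 genes in all (0.00723%). Kif16b alone had an unadjusted edgeR p under 0.05, which 5.20% of all genes had (3.13% higher and 2.07% lower in caffeine), and it was also the only member under 0.05 with DESeq2 and with limma-voom. The caffeine and vehicle libraries did not overlap for 2 of the 33 members, Kif16b and Kif22, both lower in caffeine. Over all genes tested, libraries did not overlap for 20.4%, and for 9.27% with caffeine lower. Mitotic kinesins had a median log2 fold change of -0.08, with 8 of 11 negative, and transport kinesins one of -0.05, with 10 of 12 negative. The median over all genes tested was 0.01, with 53.0% positive and 47.0% negative. The difference between the 2 medians, mitotic minus transport, was -0.04, against a spread between replicate libraries of 0.27 (SD of the difference between the 2 lists' median log2 CPM, pooled within groups). Without scaling between libraries the median of all genes was 0.07, that of transport kinesins 0.01 with 5 of 12 negative, and that of mitotic kinesins -0.03, so both lists stayed below the median of all genes.

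**Figure D1:**
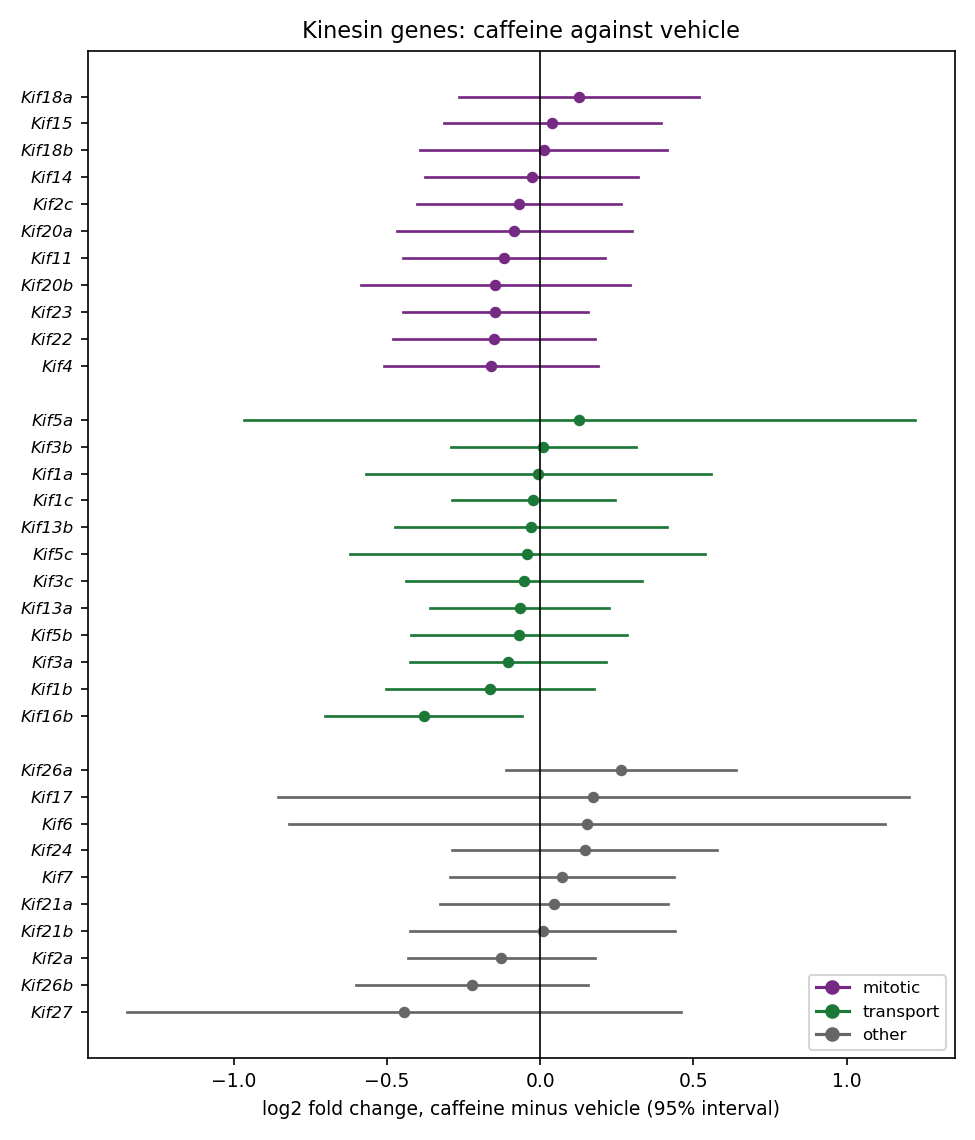
Log2 fold change, caffeine minus vehicle, of the 33 tested kinesin genes (points) with 95% intervals from the edgeR fit (lines), on a linear axis, grouped by role. Intervals of 32 genes cross 0, that of Kif16b runs from -0.70 to -0.06, and those of the low genes Kif5a, Kif17, Kif6 and Kif27 are the widest.

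Sequence just around the gene start was a feature that neither the rule nor the roles used. Promoter windows from RefSeq (GRCm38.p6, 250 bases before to 50 after the start) could be matched to 30 of the 36 members; Kif13b, Kif19a, Kif20a, Kif21b, Kif5a and Kif5b were not matched. The letters TTTGAA or TTCGAA, searched on both strands, spell the cell cycle genes homology region (CHR), an element known in human and mouse cells to bind a complex that holds cell cycle genes off until late in the cycle. These letters were in 9 of 10 mitotic windows, in 0 of 9 transport windows and in 3 of 11 other windows (Kif24, Kif26b and Kif27), against 19.2% of 32851 windows of the same length. The letters CCAAT, on both strands, were in 6 of 10 mitotic, 3 of 9 transport and 4 of 11 other windows, against 37.4% of all windows. Both together were in 6 mitotic windows (Kif11, Kif14, Kif18b, Kif22, Kif23 and Kif4), in 0 transport windows and in 3 other windows, against 7.52% of all. The E2F-like letters GGCGGGAA were in 0 mitotic windows, 0 transport windows and 1 other window (Kif6), against 2.19% of all. Kif18a was the mitotic window without CHR letters. The windows of Kif2c, Kif7 and Kif14 lay 3852, 1521 and 110 bases from the start deposited for the gene, and the others within 85 bases. A match is a description of letters, not a site, and the motifs were chosen with the roles known.

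Windows of 3 mitotic kinesins are shown for the arrangement of these letters beside those of 2 transport kinesins that lack the CHR letters. Kif11 lies at chr19:37376132-37376431 (plus strand), Kif23 at chr9:61946750-61947049 (minus strand) and Kif20b at chr19:34922108-34922407 (plus strand). Kif16b lies at chr2:142901415-142901714 (minus strand) and Kif1b at chr4:149307649-149307948 (minus strand). Sequences read 5′ to 3′ on the gene's strand, and capitals mark the CHR and CCAAT letters on either strand.
Kif11: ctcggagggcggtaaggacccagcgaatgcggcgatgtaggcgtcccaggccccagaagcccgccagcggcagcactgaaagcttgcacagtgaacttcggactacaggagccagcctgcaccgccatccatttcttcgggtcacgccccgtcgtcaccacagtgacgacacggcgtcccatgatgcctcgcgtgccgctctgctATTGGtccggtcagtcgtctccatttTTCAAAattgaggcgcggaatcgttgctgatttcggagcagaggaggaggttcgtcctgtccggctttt
Kif23: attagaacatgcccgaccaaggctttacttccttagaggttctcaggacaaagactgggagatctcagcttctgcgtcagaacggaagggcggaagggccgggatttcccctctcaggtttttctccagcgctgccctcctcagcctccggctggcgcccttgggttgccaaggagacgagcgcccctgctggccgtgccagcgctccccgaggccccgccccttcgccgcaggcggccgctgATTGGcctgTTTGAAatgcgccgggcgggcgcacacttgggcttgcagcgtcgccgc
Kif20b: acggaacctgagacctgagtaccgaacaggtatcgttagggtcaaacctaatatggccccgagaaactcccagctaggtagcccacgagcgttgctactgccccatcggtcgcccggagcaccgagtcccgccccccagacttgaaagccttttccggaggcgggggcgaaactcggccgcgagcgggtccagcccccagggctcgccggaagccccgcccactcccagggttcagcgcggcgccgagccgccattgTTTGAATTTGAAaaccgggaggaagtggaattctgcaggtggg
Kif16b: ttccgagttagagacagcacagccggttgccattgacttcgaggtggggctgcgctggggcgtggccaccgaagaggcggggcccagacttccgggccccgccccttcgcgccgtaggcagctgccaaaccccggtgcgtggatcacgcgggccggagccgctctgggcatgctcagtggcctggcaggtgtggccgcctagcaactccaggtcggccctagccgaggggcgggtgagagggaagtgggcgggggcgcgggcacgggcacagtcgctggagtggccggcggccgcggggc
Kif1b: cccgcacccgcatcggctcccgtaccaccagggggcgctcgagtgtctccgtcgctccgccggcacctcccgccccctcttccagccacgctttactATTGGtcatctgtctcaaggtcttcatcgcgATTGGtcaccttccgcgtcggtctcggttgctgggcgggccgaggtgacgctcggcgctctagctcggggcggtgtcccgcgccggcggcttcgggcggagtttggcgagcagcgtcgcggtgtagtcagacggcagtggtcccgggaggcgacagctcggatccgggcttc

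Positions count from the start, with negative ones before it. In Kif11 the CCAAT match begins at -45 and the CHR match at -19. In Kif23 the same pair sits closer together, at -7 and at 3. Kif20b holds 2 adjoining CHR matches, at 8 and 14, with no CCAAT. Kif1b holds CCAAT matches at -153 and -122, and Kif16b holds none of these letters.

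Kinesin transcripts were a small part of the libraries, and their split by role was alike in both groups. Counts of the 36 genes summed to 2129 ± 119 CPM in caffeine (SD, n = 3) and 2266 ± 329 CPM in vehicle (SD, n = 2). Mitotic genes made up 30.8 ± 3.30% of that sum in caffeine (SD, n = 3) and 31.1 ± 1.63% in vehicle (SD, n = 2). Transport genes made up 54.5 ± 4.26% in caffeine (SD, n = 3) and 54.2 ± 1.21% in vehicle (SD, n = 2). The differences between the group means of these shares were smaller than the SD within either group.

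To compare levels between genes, CPM was divided by transcript length in kilobases (CPM per kb), which was possible for 35 members; Kif14 had no matched length. Kif5b, the ubiquitous heavy chain of kinesin-1 that hauls vesicles and mitochondria, was highest with 52.4 ± 4.81 CPM per kb in caffeine (SD, n = 3) and 54.9 ± 14.5 CPM per kb in vehicle (SD, n = 2). The mitotic Kif20a followed with 44.5 ± 9.63 CPM per kb in caffeine (SD, n = 3) and 47.2 ± 2.28 CPM per kb in vehicle (SD, n = 2), and the transport gene Kif1b with 41.1 ± 4.47 CPM per kb in caffeine (SD, n = 3) and 45.9 ± 10.3 CPM per kb in vehicle (SD, n = 2). The ranges of these 3 genes over the 5 libraries overlapped. The level and place of Kif20a are uncertain where strand was not used, because 29.3% of its exonic bases are shared with opposite-strand Cdc23. Next came the chromosome motor Kif22 with 32.4 ± 5.02 CPM per kb in caffeine (SD, n = 3) and 35.9 ± 0.212 CPM per kb in vehicle (SD, n = 2) and the transport genes Kif1c and Kif13a, with 33.1 and 30.0 CPM per kb in caffeine and 33.6 and 31.3 CPM per kb in vehicle. Averaged over the 5 libraries, the 10 mitotic genes with a length ran from 4.45 (Kif18a) to 45.5 CPM per kb (Kif20a), a narrower range than that of the 12 transport genes, from 0.0972 (Kif5a) to 53.4 CPM per kb (Kif5b). Median levels were 14.3 CPM per kb for mitotic and 5.76 for transport genes. Genomic spans overlapped, with medians of 45.5 kb for mitotic and 64.2 kb for transport genes, and each group lay on 9 chromosomes.

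**Figure D2:**
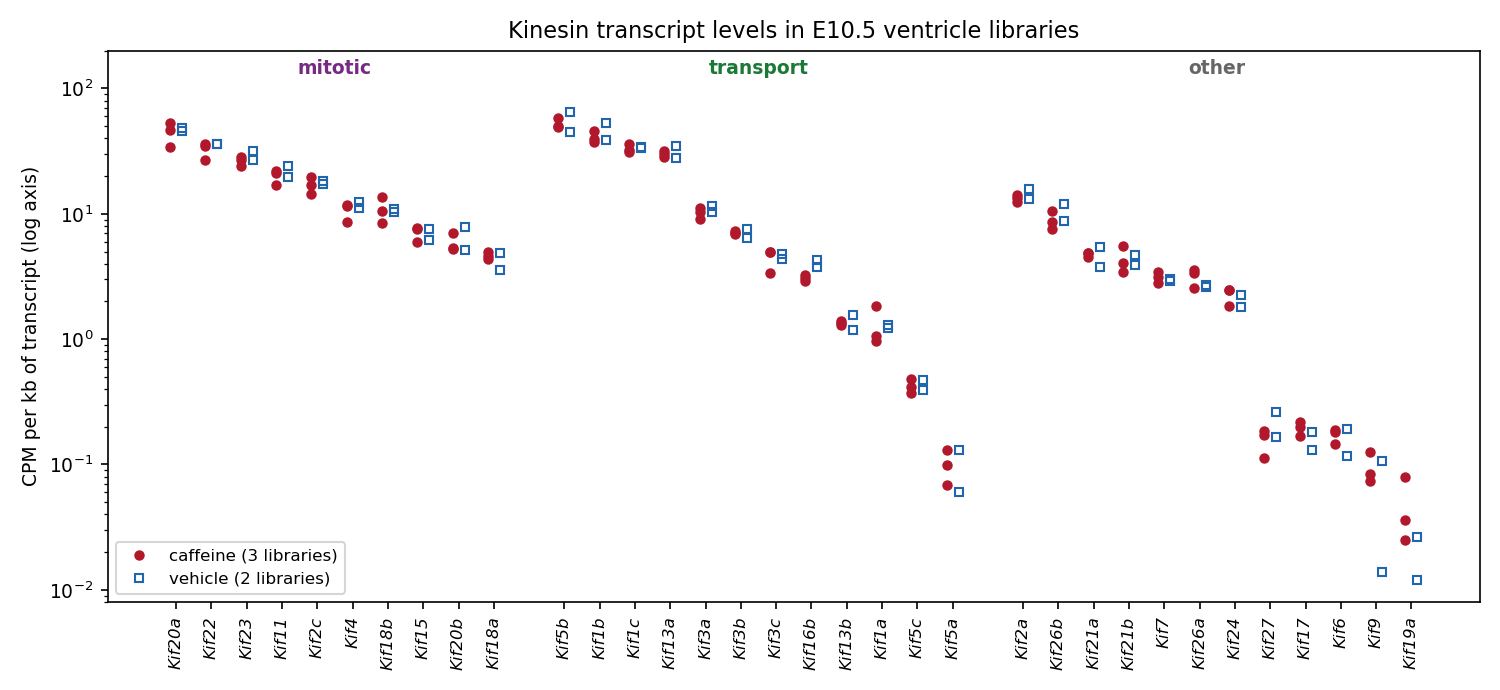
Levels in CPM per kb of transcript (log axis) of the 34 kinesin genes with a length and counts in every library, ordered by mean level within each role; filled circles are the 3 caffeine libraries and open squares the 2 vehicle libraries. Caffeine and vehicle points sit together for most genes, and Kif5a, Kif5c, Kif6, Kif17, Kif27, Kif9 and Kif19a lie below 1 CPM per kb.

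A pair of mitotic kinesins, Kif11 and Kif15, push the spindle poles apart. Kif11, the tetrameric motor that slides antiparallel microtubules, had 81.8, 106 and 103 CPM in caffeine replicates 1 to 3, against 94.4 and 116 CPM in vehicle replicates 1 and 2. Kif15, which can hold a spindle bipolar beside Kif11, had 28.7, 36.9 and 37.2 CPM in caffeine replicates 1 to 3, against 29.9 and 36.8 CPM in vehicle replicates 1 and 2. Both were lowest in caffeine replicate 1 and high in vehicle replicate 2, so the groups overlapped. Their log2 fold changes were -0.12 (SE 0.15) for Kif11, 95% interval -0.45 to 0.21, and 0.04 (SE 0.16) for Kif15, 95% interval -0.31 to 0.39.

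Kinesins of chromosomes and kinetochores gave similar results. The chromokinesin Kif22, which pushes chromosome arms away from the poles, had 56.4, 74.0 and 75.6 CPM in caffeine replicates 1 to 3, against 75.8 and 76.7 CPM in vehicle replicates 1 and 2. All 3 caffeine libraries were below both vehicle libraries, but replicates 2 and 3 by little, and the log2 fold change was -0.15 (SE 0.15). Without caffeine replicate 1 it was -0.03. Kif4, the X-linked chromokinesin of chromosome condensation and the spindle midzone, had 42.9, 59.1 and 57.3 CPM in caffeine against 56.0 and 62.6 CPM in vehicle. Kif2c, which takes microtubule ends apart to correct faulty attachments, had 41.2, 48.8 and 55.9 CPM in caffeine against 49.5 and 52.4 CPM in vehicle. Caffeine replicate 1 was lowest for both, and caffeine replicate 3 was highest for Kif2c. Kif18a, which damps chromosome movements at the plate, had 14.6, 15.5 and 16.6 CPM in caffeine against 12.0 and 16.5 CPM in vehicle. Kif18b, which shortens the spindle's outer microtubules, had 27.9, 34.9 and 45.0 CPM in caffeine against 34.8 and 36.5 CPM in vehicle. Vehicle replicate 1 was lowest for Kif18a and caffeine replicate 1 for Kif18b, and the groups overlapped. Log2 fold changes were -0.16 (SE 0.16) for Kif4, -0.07 (SE 0.15) for Kif2c, 0.13 (SE 0.18) for Kif18a and 0.01 (SE 0.18) for Kif18b.

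Kinesins of the central spindle and cytokinesis had negative log2 fold changes in 4 of 4, against 47.0% of all genes tested, and none passed the test. Kif23, which forms the centralspindlin complex with Racgap1, had 81.6, 92.4 and 97.0 CPM in caffeine replicates 1 to 3, against 90.9 and 109 CPM in vehicle replicates 1 and 2. Kif20a, which brings the chromosomal passenger complex to the central spindle, had 117, 164 and 184 CPM in caffeine replicates 1 to 3, against 159 and 169.6 CPM in vehicle replicates 1 and 2. Caffeine replicate 1 was lowest for both, and caffeine replicate 3 was highest for Kif20a. Kif20b, a motor of the last step of cell separation, had 29.4, 39.1 and 29.7 CPM in caffeine against 28.4 and 44.0 CPM in vehicle. Kif14, which binds the midzone protein Prc1, had 22.5, 30.0 and 27.2 CPM in caffeine against 25.6 and 28.6 CPM in vehicle. Vehicle replicate 1 was lowest for Kif20b, vehicle replicate 2 was highest, and groups overlapped for all 4 genes. The log2 fold changes were -0.15 (SE 0.14) for Kif23, -0.08 (SE 0.17) for Kif20a, -0.15 (SE 0.20) for Kif20b and -0.03 (SE 0.16) for Kif14. Over all 11 mitotic genes, the 95% intervals reached from -0.59 (Kif20b) to 0.52 (Kif18a), so larger changes lie outside them. The adjusted p was 0.999 for each (edgeR).

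A single caffeine library stood lowest for most mitotic kinesins. Caffeine replicate 1 was the lowest library for 9 of 11 mitotic kinesins, whereas it was lowest for 22.8% of all genes tested. Its mitotic kinesins stood at a median of 0.797 times the mean of the other 4 libraries, from 0.689 for Kif20a to 0.962 for Kif18a. The same ratio was 1.04 and 1.07 in caffeine replicates 2 and 3, against 0.957 and 1.11 in vehicle replicates 1 and 2. The 12 transport kinesins did not share this: caffeine replicate 1 was lowest for 0 of them and highest for 4, at a median ratio of 1.04. For transport kinesins vehicle replicate 2 stood apart, highest for 8 of 12 at a median ratio of 1.17, and 18.8% of all genes had that library highest. Vehicle replicate 1 was lowest for 5 of 12, at a median ratio of 0.905, and 24.6% of all genes had it lowest. Among mitotic kinesins, caffeine replicate 3 and vehicle replicate 2 were each highest for 5 of 11, against 24.6% and 18.8% of all genes. Among the 10 other kinesins, caffeine replicate 1 was lowest for 4, and vehicle replicate 2 was highest for 5. These ratios are descriptions and no test was made over the lists.

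**Figure D3:**
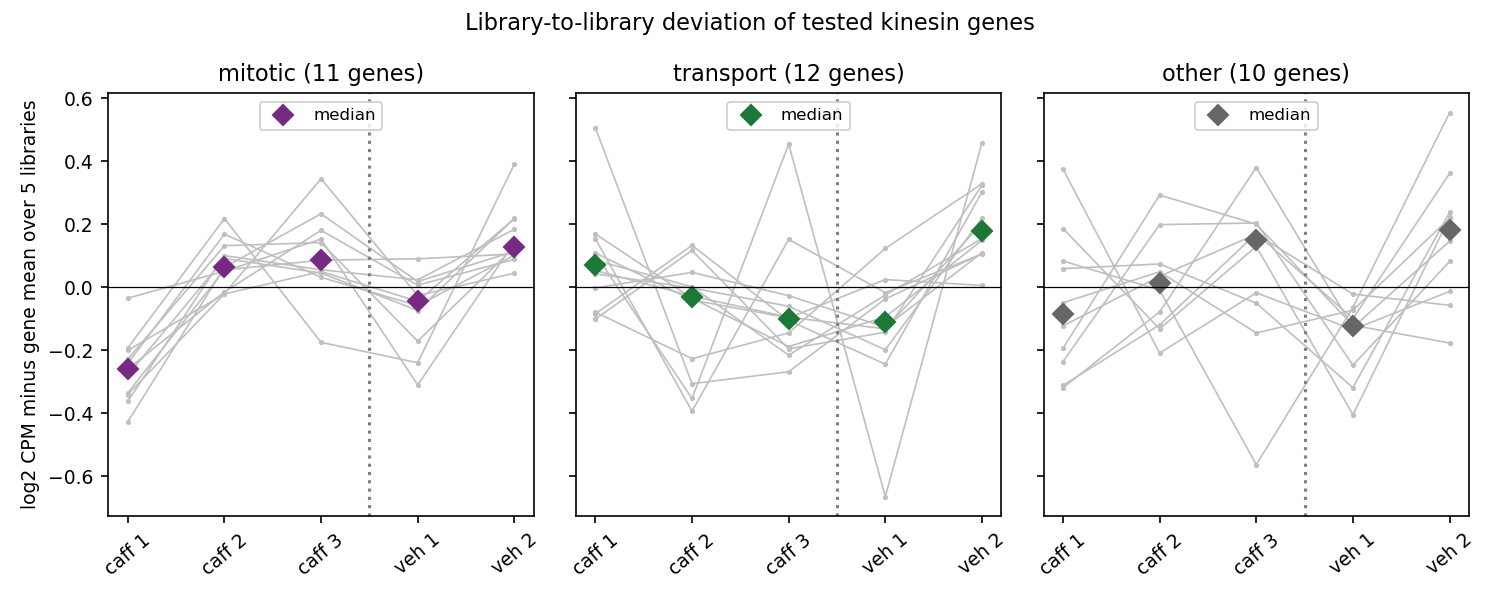
Log2 CPM of each tested kinesin gene minus its own mean over the 5 libraries (grey lines and dots), with the list median as a diamond, for mitotic, transport and other kinesins; caffeine libraries lie left of the dotted line and vehicle libraries right of it. The mitotic median is -0.26 in caffeine replicate 1, and the transport median is 0.18 in vehicle replicate 2.

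The list medians moved with single libraries. Without caffeine replicate 1 the mitotic median was 0.04, with 5 of 11 negative, and the transport median -0.12. Without vehicle replicate 2 they were 0.009 and 0.06, with 5 of 11 and 4 of 12 negative. Without vehicle replicate 1 all 11 mitotic and all 12 transport values were negative, at medians of -0.13 and -0.21, and this was the setting that moved the transport median most. Without caffeine replicates 2 and 3 in turn the mitotic medians were -0.13 and -0.18 and the transport medians -0.03 and -0.02. Of the marker lists, hepatic and gut endoderm markers, 8 genes of which Alb was at 0 in at least 1 library, summed to 118 CPM in vehicle replicate 2, against 7.31 to 38.9 CPM in the other 4 libraries. The 8 erythroid markers, with none at 0, summed to 8456 CPM in caffeine replicate 1, within a range of 6489 to 10235 CPM in caffeine and 6166 to 10708 CPM in vehicle. In vehicle replicate 2 they had their lowest sum, 6166 CPM, with 7 of 8 genes lowest there and a median of 0.686 times the mean of the other 4 libraries; 18.7% of all genes had that library lowest. The 7 endothelial markers, with none at 0, summed to 1063 to 1229.8 CPM in caffeine and 1197 to 1236 CPM in vehicle. The part of other tissue in these library differences was not tested.

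**Figure D4:**
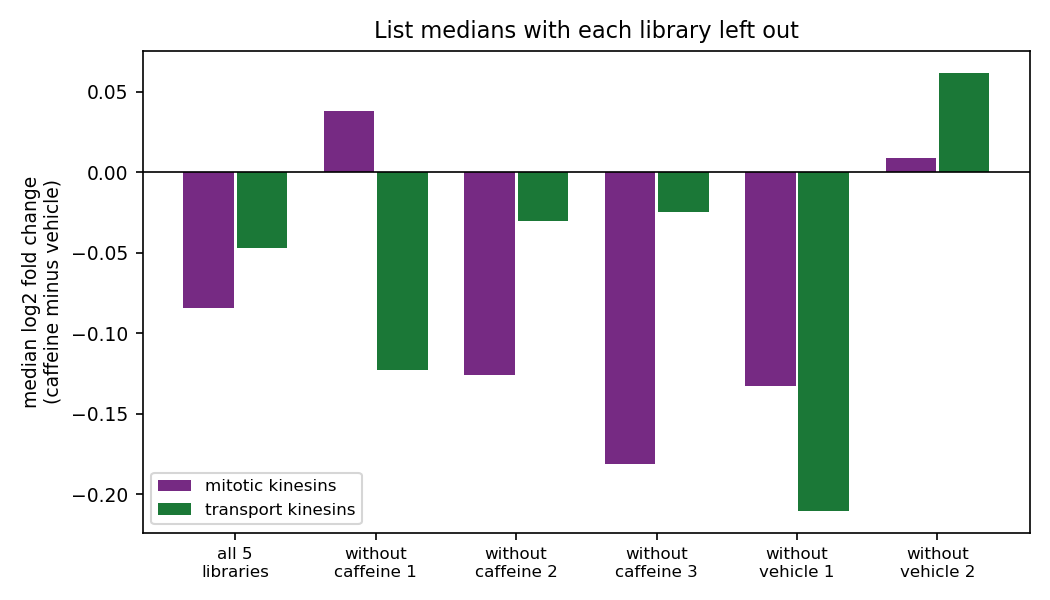
Median log2 fold change, caffeine minus vehicle, of the 11 mitotic and 12 transport kinesins (bars from 0) in the fit of all 5 libraries and with each library left out. The mitotic median is positive without caffeine replicate 1 or vehicle replicate 2, and the transport median is positive without vehicle replicate 2.

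Partners of the mitotic kinesins were also mostly lowest in caffeine replicate 1. The list held 32 spindle, kinetochore and cytokinesis genes, of which 25 had negative and 7 positive values with a median of -0.09; none passed FDR 0.05, 4 had an unadjusted p under 0.05, all lower (2.07% of all genes tested), and libraries did not overlap for 6, all with caffeine lower (9.27% of all genes tested). Caffeine replicate 1 was the lowest library for 29 of the 32, against 22.8% of all genes tested. Without that library 15 were negative and 17 positive (median 0.0072). Without caffeine replicates 2 and 3 in turn, 27 and 30 were negative, both at a median of -0.15. Without vehicle replicate 1, 24 were negative (median -0.16). Without vehicle replicate 2, 25 were negative (median -0.13), whereas the mitotic kinesins then had 5 of 11 negative. Cenpf, a kinetochore protein, had 91.8, 112 and 96.0 CPM in caffeine against 116 and 170.4 CPM in vehicle, a log2 fold change of -0.52 (SE 0.17). Nusap1, which bundles spindle microtubules, had 79.5, 83.4 and 75.9 CPM in caffeine against 95.5 and 108 CPM in vehicle, one of -0.36 (SE 0.13). Ndc80, which ties kinetochores to microtubules, had -0.38 (SE 0.15). The proliferation marker Mki67 had 281, 298 and 320.0 CPM in caffeine against 322 and 443 CPM in vehicle, with a log2 fold change of -0.35 (SE 0.15). For Cenpf and Mki67, vehicle replicate 2 was well above vehicle replicate 1. The 22 DNA replication genes, which act earlier in the cell cycle, had a median of -0.10 with 17 negative. Libraries did not overlap for 5 of them, all with caffeine lower (9.27% of all genes tested). Caffeine replicate 1 was lowest for 20, against 22.8% of all genes tested. Without that library 12 were negative (median -0.02), and with each other library left out in turn 16 to 20 were (medians -0.15 to -0.05). Of them, Rfc4, a clamp loader subunit, had the smallest p, with a log2 fold change of -0.36 (SE 0.15). Lig1 with -0.22 (SE 0.12) and Rrm1 with -0.20 (SE 0.12) followed, and none passed FDR 0.05. These lists overlap in function with the mitotic kinesins and come from the same libraries, so they are not separate evidence.

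Kinesins whose names do not begin with Kif and a number gave 1 negative and 4 positive values, none past FDR 0.05. Cenpe, the kinetochore motor that brings chromosomes to the spindle equator, had 53.3, 66.2 and 55.8 CPM in caffeine against 68.5 and 97.8 CPM in vehicle. All caffeine libraries were below both vehicle libraries, as for 9.27% of all genes tested. The log2 fold change was -0.51 (SE 0.17) with an edgeR adjusted p of 0.832. Kifc1, a minus-end motor that focuses spindle poles, had 38.6, 49.4 and 56.1 CPM in caffeine against 44.2 and 40.9 CPM in vehicle, a log2 fold change of 0.17 (SE 0.17). Kifc3 had 12.7, 12.7 and 11.7 CPM in caffeine against 10.1 and 10.5 CPM in vehicle, a log2 fold change of 0.26 (SE 0.17). Its caffeine libraries were all above both vehicle libraries, as for 11.2% of all genes tested. Counts of Kifc1 are uncertain, because Kifc5b is a near copy of it. With Cenpe, Kifc1 and the depolymerase Kif2a added, the mitotic median was -0.10.

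Among transport kinesins, kinesin-1 was almost wholly Kif5b. Kif5b had 302, 351 and 298 CPM in caffeine replicates 1 to 3, against 270.3 and 395 CPM in vehicle replicates 1 and 2, a log2 fold change of -0.07 (SE 0.16) with a 95% interval of -0.42 to 0.28. Vehicle replicate 2 was highest and vehicle replicate 1 lowest, so the vehicle libraries lay on either side of the 3 caffeine libraries. Kif5c and Kif5a, heavy chains found mainly in neurons, were low: Kif5c had 3.28, 2.84 and 2.54 CPM in caffeine against 2.72 and 3.23 CPM in vehicle, and Kif5a 0.623, 0.430 and 0.817 CPM in caffeine against 0.330 and 0.820 CPM in vehicle. Their log2 fold changes were -0.04 (SE 0.27) and 0.13 (SE 0.50). Per kilobase, Kif5b made up 99.0 ± 0.160% in caffeine (SD, n = 3) and 99.0 ± 0.0687% in vehicle (SD, n = 2) of the 3 kinesin-1 genes. Neuronal markers, 12 genes of which Stmn3 and Ina were at 0 in at least 1 library, summed to 22.0 to 45.6 CPM in caffeine and 32.7 to 34.6 CPM in vehicle.

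Kinesin-2 is a motor of Kif3a paired with Kif3b, or in neurons with Kif3c, held together by Kifap3, and it drives transport into cilia. Kif3a had 35.1, 33.1 and 28.5 CPM in caffeine against 32.5 and 36.8 CPM in vehicle. Kif3b had 39.7, 41.0 and 39.0 CPM in caffeine against 36.4 and 42.9 CPM in vehicle. Kif3c had 33.6, 23.0 and 33.6 CPM in caffeine against 29.9 and 32.5 CPM in vehicle. The groups overlapped for all 3, and log2 fold changes were -0.10 (SE 0.15), 0.01 (SE 0.14) and -0.05 (SE 0.18) for Kif3a, Kif3b and Kif3c. Per kilobase, Kif3a made up 46.9 ± 3.35% in caffeine (SD, n = 3) and 48.5 ± 0.152% in vehicle (SD, n = 2) of the 3 genes. Kif3b made up 32.7 ± 2.03% in caffeine (SD, n = 3) and 31.1 ± 0.778% in vehicle (SD, n = 2), and Kif3c 20.4 ± 3.95% in caffeine (SD, n = 3) and 20.4 ± 0.626% in vehicle (SD, n = 2). The difference between group means was under the larger SD for each. Of the exonic bases of Kif3c, 40.7% are shared with opposite-strand transcripts, so its counts are uncertain where strand was not used.

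Kinesin-3 motors had negative values in 6 of 6, against 47.0% of all genes tested, and Kif16b had the smallest p of all members. Without scaling between libraries, Kif1a, Kif1c and Kif13b turned positive. Without vehicle replicate 2, Kif1a, Kif1b, Kif13a and Kif13b did. Kif16b, which moves early endosomes, had 20.7, 18.7 and 19.8 CPM in caffeine replicates 1 to 3, against 23.9 and 27.5 CPM in vehicle replicates 1 and 2, averaging 19.7 ± 1.01 CPM in caffeine (SD, n = 3) and 25.7 ± 2.59 CPM in vehicle (SD, n = 2). All caffeine libraries were below both vehicle libraries. The log2 fold change was -0.38 (SE 0.15), with a 95% interval of -0.70 to -0.06 and an unadjusted p of 0.0243, and the edgeR adjusted p over all genes was 0.924, so it did not pass. With each library left out it ran from -0.48 to -0.30, and over all alternatives its adjusted p ran from 0.644 to 0.9998. It lies on chromosome 2 from 142618345 to 142901464 on the minus strand (mm10), a span of 283 kb, and its exons share no base with another gene.

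The other kinesin-3 genes overlapped between groups. Kif1b, which moves mitochondria and vesicles, had 265, 308 and 248 CPM in caffeine replicates 1 to 3, against 257 and 355 CPM in vehicle replicates 1 and 2, a log2 fold change of -0.16 (SE 0.16). As for Kif5b, vehicle replicate 2 was highest, and without it the value was 0.06. Kif1c, a vesicle motor, had 240.3, 217 and 208 CPM in caffeine against 227 and 224 CPM in vehicle, with a log2 fold change of -0.02 (SE 0.12) and a 95% interval of -0.29 to 0.24, the narrowest among the members. Kif13a, which carries endosomal cargo, had 217, 205 and 196 CPM in caffeine against 191 and 241 CPM in vehicle, a log2 fold change of -0.07 (SE 0.13). Kif13b had 7.81, 7.56 and 7.26 CPM in caffeine against 6.59 and 8.84 CPM in vehicle, and Kif1a, a neuronal vesicle motor, 11.1, 6.27 and 6.44 CPM in caffeine against 7.58 and 8.38 CPM in vehicle. Caffeine replicate 1 was highest for Kif1a and Kif1c, and the log2 fold changes were -0.03 (SE 0.20) for Kif13b and -0.0059 (SE 0.26) for Kif1a.

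The remaining kinesins had 3 negative and 7 positive values among 10 tested, with a median of 0.06. Kif26a and Kif26b, kinesins with divergent motor domains, had values of opposite sign. Kif26a had 17.7, 24.9 and 23.3 CPM in caffeine against 18.7 and 17.9 CPM in vehicle, a log2 fold change of 0.26 (SE 0.17). Kif26b had 104, 119 and 146 CPM in caffeine against 121 and 166 CPM in vehicle, one of -0.22 (SE 0.17). Caffeine replicate 1 was lowest for both, and the groups overlapped. The microtubule depolymerase Kif2a had 70.1, 75.0 and 65.5 CPM in caffeine against 68.9 and 84.4 CPM in vehicle, with -0.13 (SE 0.14). Kif24, a centriole kinesin that restrains cilia, had 10.2, 13.8 and 13.9 CPM in caffeine against 10.1 and 12.8 CPM in vehicle, with 0.14 (SE 0.20). Kif27, a relative of the hedgehog regulator Kif7, was near 1 CPM or below, with 0.831, 0.774 and 0.499 CPM in caffeine against 0.741 and 1.18 CPM in vehicle and a log2 fold change of -0.44 (SE 0.42). Kif7, Kif21a, Kif21b, Kif17 and Kif6 had values between 0.008 and 0.17, with SEs of 0.17 to 0.47. The untested Kif12 had 1 count in caffeine replicate 3 and 0 in each other library, Kif19a had 3, 2 and 6 counts in caffeine against 1 and 2 in vehicle, and Kif9 had 5, 8 and 5 against 1 and 7.

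Isoforms were examined in the RefSeq transcript table, which held 47 transcripts of the members. None of the 40 tested passed FDR 0.05, and none of all 18418 transcripts did (0%). The 1 member transcript with an unadjusted edgeR p under 0.05, which 7.36% of all transcripts had, was the only one of Kif16b. Transcript usage, a shift of a gene's transcripts against each other, could be tested for 5 members, of which 0 passed FDR 0.05 and 0 had an unadjusted p under 0.05. Over all 2897 genes so tested, 3.07% passed and 17.7% had an unadjusted p under 0.05 (edgeR's diffSpliceDGE). The main Kif2a transcript, NM_001145779, held 98.1%, 98.2% and 99.3% of the gene's counts in caffeine replicates 1 to 3, against 98.5% and 99.5% in vehicle replicates 1 and 2. For Kif20a, the main transcript NM_009004 held 60.1%, 71.1% and 69.9% of the gene's counts in caffeine replicates 1 to 3, against 67.4% and 64.7% in vehicle replicates 1 and 2, lowest in caffeine replicate 1. For Kif21a, NM_001109042 held 36.8%, 30.4% and 35.4% of the gene's counts in caffeine replicates 1 to 3, against 48.4% and 38.9% in vehicle replicates 1 and 2. Its NM_001109040 held 18.7%, 20.2% and 16.8% in caffeine against 13.9% and 16.3% in vehicle. NM_016705 held the largest share in caffeine replicates 2 and 3. Shares within a gene depend on each other, so when one rises another falls. How often such shares differ between groups over all transcripts was not counted, so no shift is read from these values. Usage p-values of these genes were 0.338 for Kif2a, 0.556 for Kif20a and 0.428 for Kif21a, and the adjusted values were 0.698, 0.859 and 0.770 (diffSpliceDGE). The Kif1b transcript that ends inside the gene, NM_008441, held 68.7%, 69.2% and 66.1% of the gene's counts in caffeine replicates 1 to 3, against 67.9% and 69.4% in vehicle replicates 1 and 2, close to the same share in each library.

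Counts of some members are uncertain because their exons overlap a gene on the other strand. The shared part of the exonic bases (GENCODE M21, GRCm38) was 29.3% for Kif20a with Cdc23, 19.2% for Kif2a with Dimt1, 15.1% for Kif4 with Pdzd11 and 20.3% for Kif7, mostly with an antisense RNA. Whether counting used strand is not given in the sources used here. Kif4 also has a pseudogene row, with 1 to 3 counts per library.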

How the data were processed

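Estimated counts per gene and per transcript, which need not be whole numbers, were deposited by the authors for 5 libraries; per the file headers the annotations were RefSeq and Ensembl release 71. TopHat and Partek are the tools, and mm10 (GRCm38) the build, listed by the submitters' processing notes. Read length and strand use: not given in the sources used here. Deposited totals ran from 21713381 to 25048134 counts per library. Libraries were made with a TruSeq RNA kit, per the labels' protocols.

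Counts were rounded. Low genes were removed with filterByExpr and libraries were scaled by TMM (factors 0.970 to 1.02). Caffeine and vehicle were compared with edgeR 4.0.16 in R 4.3.3 (glmQLFit with robust estimation, glmQLFTest, two-sided, Benjamini-Hochberg adjustment over all features), and transcript usage with diffSpliceDGE. Each SE was the absolute log2 fold change divided by √F. The common biological coefficient of variation was 0.145. CPM per kb used lengths of GENCODE M21 transcripts matched by RefSeq accession. Printed gene ends are the deposited stop minus 1.

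All 36 members are accounted for by name; per-library values are given for tested mitotic and transport members and for the 5 other members with the smallest p. The members and lists were chosen with earlier results of these data known. Companion genes named are Cenpe, Kifc1, Mki67 and up to 3 per list with the smallest p. Alternatives were other scalings and filters, DESeq2 1.42.0, limma-voom (limma 3.58.1), no robust estimation, Ensembl gene counts, the replicate block, leaving out each library and FDR 0.1.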

Additional observations from a re-analysis of the deposited data

How the results depend on the processing

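No kinesin gene passed FDR 0.05 under any alternative run, nor at FDR 0.1. No kinesin transcript or kinesin usage test did so either, but these were not run with DESeq2, limma-voom or Ensembl counts. Over all genes, 1 passed, against 6 with no low-count filter, 18 with DESeq2, 2 with Ensembl gene counts and 0 to 18 with 1 library left out: 0 without vehicle replicate 1, 18 without caffeine replicate 1, 8 without vehicle replicate 2 and 2 without caffeine replicate 2. The replicate number as a block passed 52 genes, 0 of them kinesins, with a mitotic median of -0.19 and a transport median of -0.01. The numbers were not used as pairs, and whether they mark pairs could not be decided. Deviations from group means correlated at -0.02 for replicate 1 and 0.13 for replicate 2, with 2 shared numbers only. Vehicle replicate 1 and caffeine replicate 3, which share no number, also correlated at 0.13. With 2 vehicle libraries these deviations mirror each other, so such correlations cannot tell pairs from unpaired libraries. With 1 library left out, the mitotic median ran from -0.18 to 0.04, the transport median from -0.21 to 0.062 and their difference from -0.16 to 0.16. A fit with 1 vehicle library assumes that it varies like the caffeine libraries. Log2 fold changes of single kinesins, none past the test, changed sign in these cases. Without scaling, the values were Kif13b 0.030, Kif14 0.031, Kif1a 0.056, Kif1c 0.039, Kif3c 0.0085 and Kif5c 0.019, all below that setting's median of all genes, 0.073, against 0.013 with scaling. With the replicate block, the values were Kif13b 0.0087, Kif15 -0.026, Kif18b -0.19, Kif1a 0.077, Kif1c 0.019, Kif21b -0.21, Kif5a -0.061, Kif5c 0.042 and Kif7 -0.0047. With limma-voom, the values were Kif18b -0.017 and Kif21b -0.016. With upper-quartile scaling, the value was Kif1a 0.0011. With a filter of 5 CPM in 2 libraries, the value was Kif1a 0.0031. With RLE scaling, the value was Kif21b -0.0021. With DESeq2, the value was Kif21b -0.0020. With each library left out in turn, the ranges were Kif11 -0.26 to 0.0090, Kif13a -0.23 to 0.084, Kif13b -0.23 to 0.17, Kif14 -0.12 to 0.079, Kif15 -0.10 to 0.17, Kif17 -0.044 to 0.32, Kif18a -0.086 to 0.34, Kif18b -0.18 to 0.16, Kif1a -0.33 to 0.14, Kif1b -0.38 to 0.062, Kif1c -0.083 to 0.021, Kif20a -0.23 to 0.084, Kif20b -0.43 to 0.18, Kif21a -0.21 to 0.32, Kif21b -0.21 to 0.15, Kif24 -0.014 to 0.29, Kif26b -0.44 to 0.00035, Kif2a -0.27 to 0.00030, Kif2c -0.18 to 0.038, Kif3b -0.10 to 0.11, Kif3c -0.14 to 0.11, Kif5a -0.40 to 0.88, Kif5b -0.32 to 0.20, Kif5c -0.16 to 0.061, Kif6 -0.17 to 0.52 and Kif7 -0.0027 to 0.14. The filter of 5 CPM gave no value for Kif5a, Kif5c, Kif6, Kif17 and Kif27. The causes were not tested. The low genes Kif5a, Kif17, Kif6 and Kif27 had the largest SEs, 0.42 to 0.50, so that only large changes could have passed. The limit was not confined to them: Kif16b, with an SE of 0.15, did not pass at a log2 fold change of -0.38.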

Other observations

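Other parts of the microtubule transport machinery were measured in the same libraries, and no gene of these lists passed FDR 0.05. Of 24 cytoplasmic dynein and dynactin genes, the minus-end counterpart of the transport kinesins, 11 had positive and 13 negative log2 fold changes (median -0.02). Their libraries did not overlap for 2 with caffeine higher and 4 with caffeine lower, against 11.2% and 9.27% of all genes tested. The dynein heavy chain Dync1h1 had 209, 244 and 230.3 CPM in caffeine against 257 and 303 CPM in vehicle, a log2 fold change of -0.30 (SE 0.13). The cargo adaptor Bicd2 had 0.21 (SE 0.12) and the intermediate chain Dync1i2 -0.20 (SE 0.13). Of 17 kinesin light chains and cargo adaptors, 12 had positive and 5 negative values (median 0.09). Libraries did not overlap for 4 of these with caffeine higher, against 11.2% of all genes tested, and for 1 with caffeine lower, against 9.27%. Mapk8ip3, a scaffold that links cargo to kinesin-1, had 64.4, 66.8 and 74.7 CPM in caffeine against 55.9 and 57.0 CPM in vehicle, a log2 fold change of 0.28 (SE 0.14). Kifap3, the kinesin-2 subunit that binds Kif3a and Kif3b, had 66.6, 63.6 and 55.1 CPM in caffeine against 68.9 and 74.1 CPM in vehicle, a log2 fold change of -0.21 (SE 0.14), and the light chain Klc3 had -0.47 (SE 0.33). Of 16 intraflagellar transport genes, whose products kinesin-2 carries into the cilium, 4 were positive and 12 negative (median -0.13). Libraries did not overlap for 2 of the 16, with caffeine lower, against 9.27% of all genes tested. Ift74 had -0.40 (SE 0.27), Ift57 -0.26 (SE 0.18) and Wdr19 0.27 (SE 0.21).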
